A study of Gallus gallus with 6 samples.

Results

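The genes described here encode ion channels and their auxiliary subunits, picked by gene symbol: potassium (KCN), calcium (CACN), sodium (SCN and SCNN), acid-sensing (ASIC), HCN, TRP, mucolipin (MCOLN), polycystin (PKD2), CLC chloride (CLCN), chloride intracellular (CLIC), anoctamin (ANO), PIEZO and GABA-A receptor (GABR) names. Of 12462 named genes in the series, 174 carry such a symbol. Of those, 128 reached 10 counts summed over all libraries and make up the set; the other 46 did not. RNA came from COVCAR cells, chicken ovarian adenocarcinoma cells recovered from ascites fluid. The 3 primary lines, C27, C29 and C30, were each grown to confluence on gelatin and sorted by flow cytometry into cells with aldehyde dehydrogenase activity (ALDH+) and cells without it (ALDH-). No genotype or drug treatment is given for either fraction. Each line gave 1 library per fraction, so there are 3 ALDH+ and 3 ALDH- libraries. The labels do not say whether the lines came from separate birds, so p-values measure the spread between these samples.

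Ion channels are membrane proteins that let ions flow down their gradients. Channels of the cell surface set the membrane potential and admit calcium, which drives contraction, secretion and migration. Others sit in organelles: mucolipins release calcium and other cations from endosomes and lysosomes, and several CLC proteins exchange chloride for protons there. Potassium, sodium and calcium channels pair a pore-forming subunit with auxiliary subunits that change its traffic and gating. In tumour cells, channels have been studied for their part in volume control, proliferation and migration.

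Estimated counts per library ran from 22170788 to 26747453. The ion channel genes held 0.144 to 0.175% of the counts in the ALDH- libraries and 0.1519 to 0.1971% in the ALDH+ libraries. The epithelial label was only partly borne out by marker genes: EPCAM averaged 0.885 CPM (TMM-scaled CPM, a count relative to library size) in ALDH- and 0.992 CPM in ALDH+ cells, and CLDN3 0.104 and 0.156 CPM. The keratin KRT7 averaged 1435 and 2233 CPM, and the collagen COL1A1 12269 and 17591 CPM. The whole list of epithelial, ovarian and oviduct markers summed to 17978, 17942 and 40043 CPM in ALDH- and 4027, 4012 and 1623 CPM in ALDH+ cells. Most of the ALDH- sum was 1 gene, avidin. The median log2 fold change of the 10 tested genes of the list was 0.11. Of these 10 genes 3 were lower without the block, namely avidin (AVD, 22510 and 611.6 CPM on average), ovotransferrin (TF, 1136 and 33.8 CPM) and CDH1 (20.5 and 1.21 CPM), and 0 were higher (1 by DESeq2, and 1 with an unadjusted p under 0.05). With the block 3 were lower and 2 (KRT18 and WT1) higher. A list of macrophage and monocyte markers summed to 7684, 7517 and 14923 CPM in ALDH- cells of C27, C29 and C30 and to 527.4, 482.2 and 279.0 CPM in ALDH+ cells. Of its 20 tested genes 18 were lower in ALDH+ cells and none of the 21 measured was at 0 counts overall. In bulk RNA, fewer cells of a type and less RNA per cell cannot be told apart.

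Levels differed widely between channel genes. On the length-corrected TPM scale, 18 of the 128 genes averaged at least 10 TPM over the 6 libraries, 57 averaged at least 1 TPM and 71 fell under 1 TPM. CLIC4, a chloride intracellular channel family protein found mostly in the cytoplasm and on internal membranes, was the most abundant at a mean of 238.0 TPM, with libraries from 91.7 to 468.1 TPM. It was followed by its relative CLIC2 at 75 TPM, the potassium channel subunits KCNE4 at 53.8 TPM and KCNMB1 at 48.5 TPM, and TRPV2 at 42.7 TPM, a cation channel of the vanilloid family. The rank of KCNE4 rests on the length correction, since it had 1796 counts in all against 14533 for TRPV2. CLIC4 alone supplied 16.6, 22.5 and 14.8% of the summed TPM of the channel genes in ALDH- cells (C27, C29, C30) and 29.8, 24.5 and 42.9% in ALDH+ cells. The 10 genes with the highest mean TPM together held 60.3 to 72.2% of that sum, depending on the library. The number of channel genes at 1 TPM or more was 51, 47 and 41 in the ALDH- libraries and 57, 53 and 54 in the ALDH+ libraries. On log2 TPM (pseudocount 1), the median change of ALDH+ over ALDH- was 0.36 over all 11652 genes tested on that scale. The number of all genes at 1 TPM or more was not compared.

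**Figure D1:**
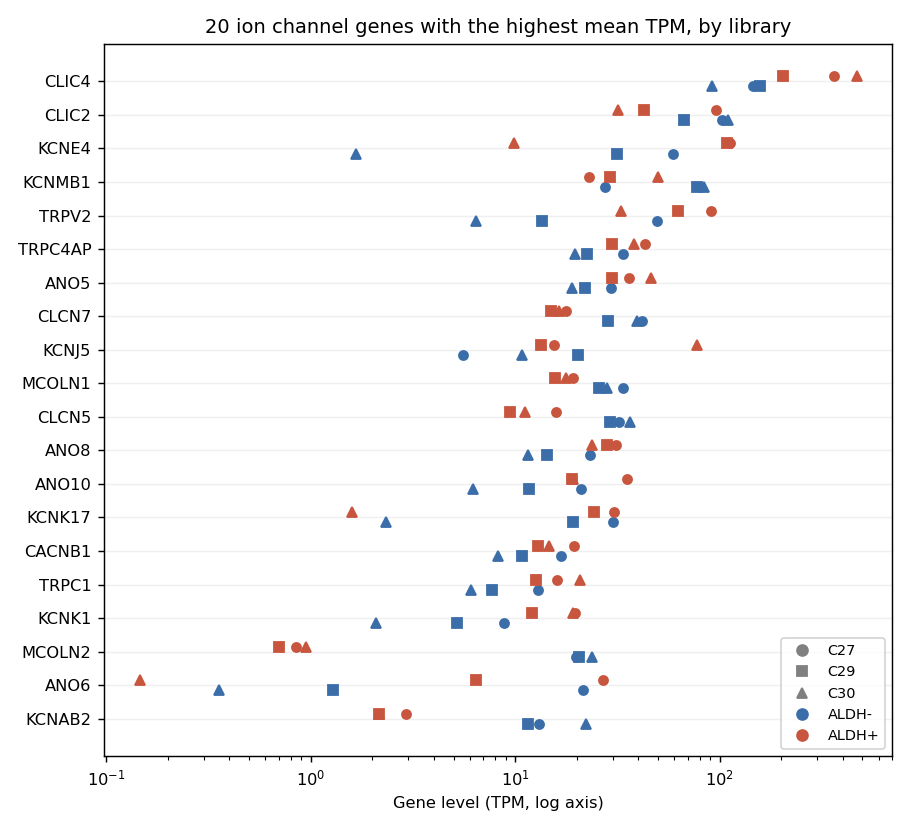
Level of the 20 ion channel genes with the highest mean TPM, on a log axis in TPM. Each point is 1 library, blue for ALDH- and red for ALDH+, with the symbol giving the line; CLIC4 spans 91.7 to 468.1 TPM, while KCNE4 spans 1.66 to 112.2 TPM.

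After low counts were filtered out, 83 of the 128 channel genes could be tested, together with 12811 genes in all; the other 45 had 10 to 67 counts over the 6 libraries. Without the line as a block, edgeR called 2 channel genes higher in ALDH+ cells and 8 lower, at a Benjamini-Hochberg adjusted p under 0.05. These are 2.41 and 9.64% of those tested, where the share over all genes was 0.835% higher and 5.3% lower. The fit with the line as a block, which compares the fractions of the same culture, called 14 higher and 14 lower, each 16.9% of those tested, where the shares over all genes were 5.92 and 7.6%. All 10 genes of the first fit were among the 28 of the second.

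The channel genes had a median log2 fold change of 0.45, with 54 above 0 and 29 below, while over all tested genes the median was 0.00 and 50.3% lay above 0. Within lines, 40 of the 83 (48.2%) were higher in the ALDH+ fraction of all 3 lines and 19 (22.9%) were lower in all 3. Over all tested genes those shares were 28.4 and 27.7%. The 28 called genes all had the same direction in the 3 lines. They were picked by fits on these same libraries, so this agreement adds no separate support.

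**Figure D2:**
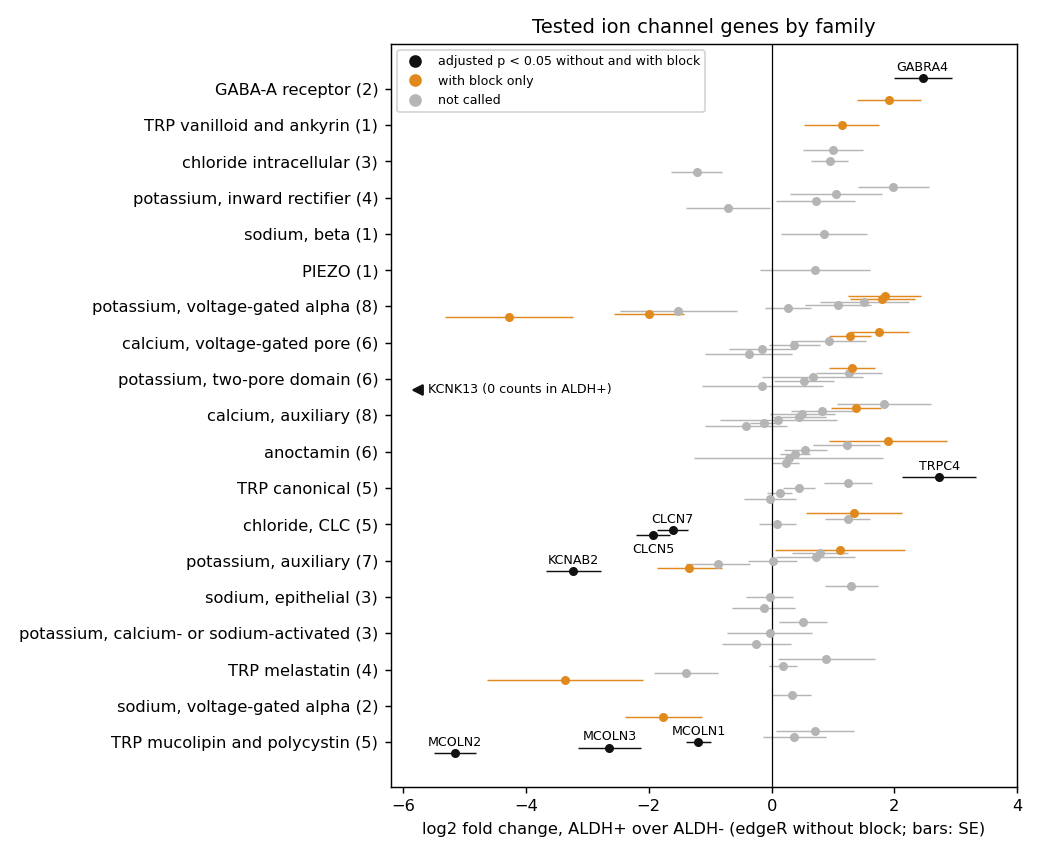
Log2 fold change of ALDH+ over ALDH- for 80 of the 83 tested ion channel genes, grouped by family with the number shown in brackets; bars are standard errors. Black genes passed by edgeR with and without the line as a block, and orange genes only with it. KCNK13, which had 0 counts in ALDH+ cells, is drawn at the left edge off the scale.

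Of the 8 genes lower in ALDH+ cells in both fits, 5 belong to the mucolipin and CLC families: 3 of 5 tested mucolipin and polycystin genes and 2 of 5 tested CLC genes. Over all tested genes, 5.3% were lower without the block and 7.6% with it. These small families are named because members were called, so the counts add no separate support. MCOLN1 encodes the lysosomal cation channel whose loss causes mucolipidosis type IV in humans. It stood at 92.88, 85.55 and 117.29 CPM in ALDH- cells (C27, C29, C30, in the order kept throughout) and at 42.73, 44.53 and 42.71 CPM in ALDH+ cells. The groups did not overlap, and the log2 fold change was -1.19 ± 0.21 (SE; adjusted p = 0.0144). MCOLN2, a mucolipin described in mouse macrophages, was at 34.49, 43.46 and 62.98 CPM in ALDH- and at 1.21, 1.26 and 1.45 CPM in ALDH+ libraries. Its log2 fold change of -5.16 ± 0.34 had an adjusted p of 0.0011. MCOLN3, the third mucolipin and a channel of endosomes, was at 8.90, 14.69 and 16.69 CPM against 1.54, 1.22 and 3.67 CPM. Its log2 fold change was -2.64 ± 0.51 (adjusted p = 0.02).

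Both CLC genes that passed without the block also fell. CLCN5 encodes an endosomal chloride-proton exchanger, best known from the kidney, where its loss causes Dent disease in humans. It was at 99.13, 111.16 and 173.69 CPM in ALDH- libraries and 39.54, 30.71 and 30.48 CPM in ALDH+ libraries, a log2 fold change of -1.93 ± 0.28 (adjusted p = 0.00569). CLCN7 encodes the lysosomal exchanger that osteoclasts need to resorb bone. It was at 108.03, 89.40 and 154.96 CPM against 37.66, 40.37 and 37.18 CPM, a log2 fold change of -1.61 ± 0.25 (adjusted p = 0.00855). In all 5 of these genes the ALDH- library of C30 had the highest CPM, as it had for the macrophage marker sum. On the TPM scale it was highest only for MCOLN2 and CLCN5. By TPM, MCOLN1 and CLCN7 were highest in ALDH- cells of C27 (33.7 and 41.7 TPM, against 28.1 and 39.3 TPM in C30). MCOLN3 was highest by TPM in ALDH- cells of C29 (7.96 against 7.19 TPM in C30). The part of macrophage RNA in these differences was not tested. MCOLN2, CLCN5 and CLCN7 passed whichever single library was left out. MCOLN1 did not pass without any 1 of the ALDH+ libraries (adjusted p = 0.0805, 0.0592 and 0.0509 for C27, C29 and C30) or without the ALDH- library of C30 (0.076), and with the block it did not pass without C27 (0.081). MCOLN3 lost its call when ALDH+ cells of C27 (0.0825) or C29 (0.0682), or ALDH- cells of C29 (0.0686) or C30 (0.085), were left out. MCOLN2 and MCOLN3 lie with 1 gene between them in the RefSeq order of the GRCg7b assembly.

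**Figure D3:**
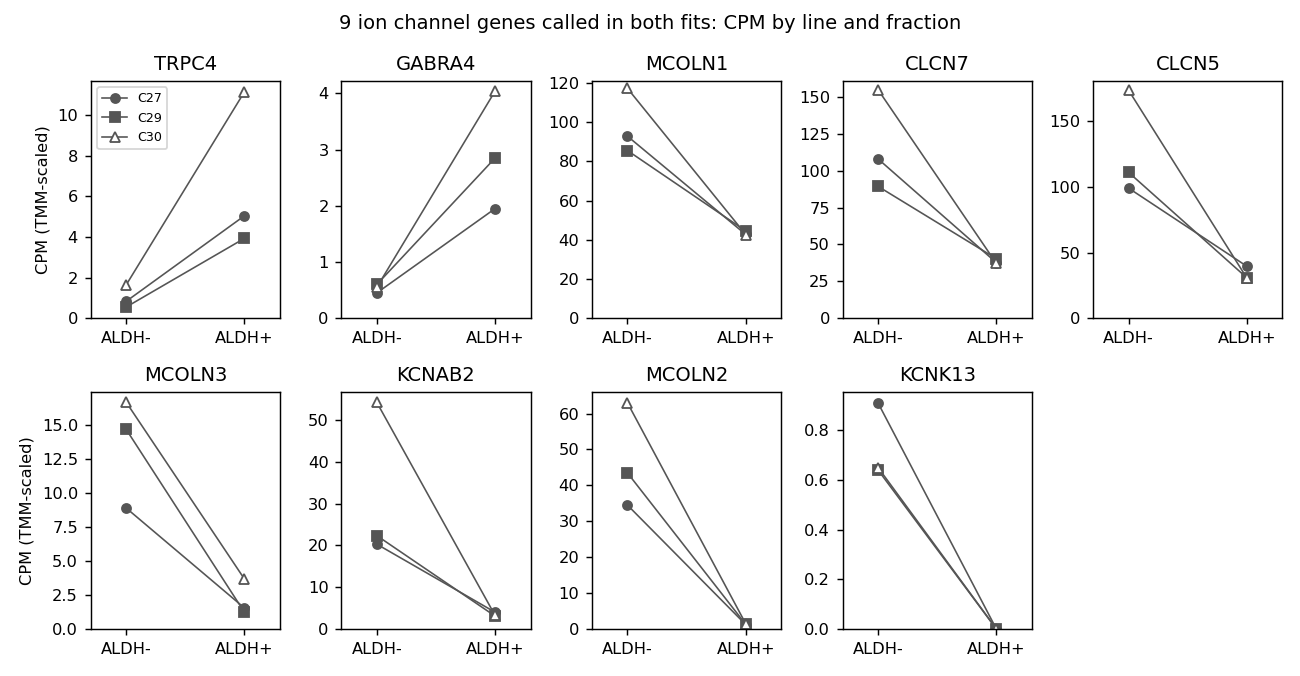
CPM of 9 of the 10 ion channel genes that passed in both fits, with a line joining the ALDH- and ALDH+ library of each culture. TRPC4 and GABRA4 rise in all 3 lines; the other 7 fall, MCOLN2 to between 1.21 and 1.45 CPM and KCNK13 to 0.

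Other genes that fell in both fits act in potassium currents. KCNAB2 encodes a cytoplasmic beta subunit of voltage-gated potassium channels. It was at 20.30, 22.35 and 54.26 CPM in ALDH- libraries and 3.99, 3.07 and 3.23 CPM in ALDH+ libraries, a log2 fold change of -3.23 ± 0.45 (adjusted p = 0.00442). KCNK13, a tandem-pore-domain potassium channel found in microglia of mice, had 51 counts summed over ALDH- cells and 0 over ALDH+ cells. Set against a floor of 3 counts over the group, with the 51 counts taken as exact, it was at least 19.1-fold lower in ALDH+ cells. The adjusted p was 0.0105. However, KCNK13 passed the count filter only through its ALDH- libraries, which had 24, 14 and 13 counts, so its call adds no separate support. KCNAB2 and KCNK13 passed whichever single library was left out without the block, but with the block KCNK13 did not pass without C27 (0.0503).

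KCNA3, a voltage-gated potassium channel known from lymphocytes and macrophages, passed by edgeR only with the block. DESeq2 without the block also called it lower (adjusted p = 0.0384). It was at 28.66, 18.22 and 9.72 CPM in ALDH- libraries and at 1.85, 1.04 and 0 CPM in ALDH+ libraries. The groups did not overlap; the adjusted p was 0.0538 without and 0.00645 with the block, and the block call held without each line in turn. The macrophage marker sums given above fell beside these genes. A lymphocyte list summed to 74.3, 54 and 241.1 CPM in ALDH- against 10, 9.66 and 6.9 CPM in ALDH+ libraries. Of its 15 measured genes, 3 had 0 counts and 6 were tested. Of these 6, 3 were lower in each edgeR fit and 0 higher, while 1 was higher at an unadjusted p under 0.05 without the block. Among the ALDH- libraries KCNA3 was lowest in C30, where both marker sums were highest. The part of such cells in the potassium channel values was not tested.

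A further 4 genes lower by edgeR with the block only had lower or more scattered levels. DESeq2 without the block also called TRPM8 (adjusted p = 0.0245) and KCNB2 (0.0392) lower, but not KCNMB1 (0.1) or SCN4A (0.0535). KCNMB1, a subunit of the calcium-activated BK channel known from smooth muscle, was at 22.45, 71.04 and 95.22 CPM against 15.68, 23.39 and 35.53 CPM (adjusted p = 0.201 without and 0.0304 with the block). Its groups overlapped because the ALDH- library of C27 was below the ALDH+ libraries of C29 and C30. TRPM8, the cold-sensing cation channel, was at 0.57, 2.20 and 12.51 CPM against 0.20, 0.09 and 1.17 CPM, so its ALDH- level in C30 was far above the others (0.183 and 0.015). KCNB2, a voltage-gated potassium channel, was at 2.57, 1.1 and 1.2 CPM against 0.54, 0.23 and 0.44 CPM (0.0934 and 0.0334). SCN4A, the sodium channel of skeletal muscle, had a block log2 change of -1.62 ± 0.39 (0.162 and 0.0379). With 1 line left out, the block call ended for KCNB2 without C27 (adjusted p = 0.2), for KCNMB1 without C30 (0.0598) and for TRPM8 without C30 (0.072). It ended for SCN4A without C27 (0.0655) or C30 (0.151).

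The 2 genes that rose in both fits act at the cell surface. TRPC4 encodes a canonical TRP channel that admits sodium and calcium downstream of receptors coupled to phospholipase C. It was at 0.83, 0.55 and 1.64 CPM in ALDH- libraries and 5.04, 3.93 and 11.14 CPM in ALDH+ libraries. The groups did not overlap, and the log2 fold change was 2.73 ± 0.60 (adjusted p = 0.0346). GABRA4 encodes an alpha subunit of the GABA-A receptor, a chloride channel opened by the transmitter GABA. It was at 0.45, 0.60 and 0.55 CPM against 1.95, 2.85 and 4.04 CPM, a log2 fold change of 2.46 ± 0.47 (adjusted p = 0.02). TRPC4 did not pass without any 1 of the ALDH+ libraries (0.0681, 0.0529 and 0.0978) or when ALDH- cells of C27 (0.0677) or C29 (0.122) were left out. GABRA4 lost its call when ALDH+ cells of C29 (0.0634) or C30 (0.07), or ALDH- cells of C29 (0.0789) or C30 (0.0802), were left out. With the block, both passed without each line in turn.

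A second GABA-A subunit, the gamma subunit GABRG3, passed by edgeR with the block only. DESeq2 without the block also called it higher (adjusted p = 0.00473). Its values were 2.04, 1.19 and 0.85 CPM in ALDH- and 4.97, 7.59 and 2.95 CPM in ALDH+ libraries, without overlap (adjusted p = 0.0807 without and 0.0225 with the block). Among the beta subunits, which a GABA-A receptor channel normally also contains, GABRB2 had 4 counts in all 6 libraries together. GABRA2, which has 1 gene between it and GABRA4 in the GRCg7b order, had 58 counts and was not tested.

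Among the voltage-gated calcium channel genes, 2 of 6 tested pores and 1 of 8 tested auxiliary subunits were higher with the block. The share over all tested genes was 5.92%. DESeq2 without the block called the same 3 genes, and 4 of these 14 genes had a log2 fold change below 0. CACNA1C, the L-type calcium channel pore of heart and smooth muscle, was at 7.99, 5.37 and 6.18 CPM in ALDH- and 14.03, 11.88 and 21.44 CPM in ALDH+ libraries (adjusted p = 0.0716 without and 0.0323 with the block). CACNA1H, a T-type pore, was at 5.19, 3.40 and 1.54 CPM against 14.84, 9.08 and 10.17 CPM (0.0806 and 0.0171). CACNA2D1, the auxiliary subunit that brings calcium channels to the surface, was at 16.21, 11.20 and 7.52 CPM against 26.12, 44.71 and 19.66 CPM (0.1 and 0.0282). The fractions did not overlap in these 3 genes. The genes are named because they were called, so this adds no separate support. The block call ended for CACNA1C without C27 (0.0676) or C30 (0.101); those of CACNA1H, CACNA2D1 and GABRG3 held without each line in turn.

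Another 7 genes higher by edgeR with the block were spread over TRP, anoctamin, CLC and potassium families. DESeq2 without the block also called KCNK1 (adjusted p = 0.0125), KCNH2 (0.0302) and KCNH5 (0.0396) higher. It did not call TRPV2 (0.219), ANO1 (0.166), KCNE4 (0.506) or CLCN4 (0.287). TRPV2 was at 116.09, 38.18 and 22.77 CPM in ALDH- and 173.28, 150.43 and 68.03 CPM in ALDH+ libraries (adjusted p = 0.336 without and 0.0267 with the block). ANO1, a calcium-activated chloride channel of secretory epithelia and smooth muscle, was at 2.5, 1.1 and 0.10 CPM against 6.58, 6.14 and 1.29 CPM (0.315 and 0.0235). In both genes the fractions overlapped across lines, and each line was higher in its own ALDH+ library. KCNE4, which inhibits several voltage-gated potassium channels, was at 13.14, 8.77 and 0.60 CPM against 21.01, 25.74 and 2.02 CPM (0.591 and 0.0373). KCNK1, a tandem-pore-domain channel, was at 15.15, 10.83 and 5.48 CPM against 27.69, 21.50 and 29.15 CPM, with no overlap (0.0975 and 0.0414). The block log2 changes of CLCN4, an endosomal exchanger, and of the EAG-type potassium channels KCNH2, which carries a repolarizing current of the heart, and KCNH5 were 1.48 ± 0.35, 1.81 ± 0.43 and 1.86 ± 0.48. Their adjusted p with the block was 0.034, 0.036 and 0.0456. With the block, CLCN4 thus moved opposite to CLCN5 and CLCN7. CLCN3, of the same family, was at 11.55, 8.67 and 5.83 CPM against 23.63, 12.87 and 24.91 CPM. Neither edgeR fit called CLCN3 (0.107 and 0.0551), while DESeq2 called it higher (0.0183).

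Leaving out 1 line ended the block call of 5 of these 7 genes, while TRPV2 and ANO1 passed without each line in turn. Calls over all tested genes moved too, from 758 higher and 974 lower with all lines. They were 311 and 699 without C27, 1047 and 1307 without C29, and 427 and 815 without C30. Why the calls of single genes ended was not tested. The call of KCNE4 ended without C27 (adjusted p = 0.0545), C29 (0.076) or C30 (0.0511), and that of KCNH5 without C27 (0.143), C29 (0.0766) or C30 (0.0955). It ended for CLCN4 without C27 (0.14) or C30 (0.0951), for KCNH2 without C27 (0.117) or C29 (0.0713) and for KCNK1 without C27 (0.0612) or C30 (0.0609). Some marker lists of other cell types rose beside these genes. Of 13 tested smooth muscle and contractile genes, 1 was higher without the block (CALD1) and 8 with it, and their summed level was 5276 to 6545 CPM in ALDH- and 10748 to 15607 CPM in ALDH+ libraries. Of 14 fibroblast genes, 0 passed without the block by edgeR or limma-voom, 2 passed by DESeq2, 4 had an unadjusted p under 0.05, and 4 were higher with the block; their sum was 14512 to 38858 CPM in ALDH- and 22070 to 53044 CPM in ALDH+ libraries. A neuron and glia list summed to 5.57, 10.2 and 8.57 CPM in ALDH- and 12.4, 13.6 and 31 CPM in ALDH+ libraries. Of its 7 tested genes, 0 were called in either edgeR fit or by DESeq2. A striated muscle list summed to 53, 77.8 and 71.1 CPM against 126.6, 369.5 and 184.6 CPM, with 1 of 3 tested genes higher in both fits. An endothelial list summed to 161.4, 99.1 and 86.6 CPM against 75.7, 69.3 and 89.9 CPM, so it fell in C27 and C29. Of its 4 tested genes, 1 was higher and 1 lower without the block. With the block, and by DESeq2 without it, 2 were higher and 1 lower. The part of such cells in the channel values was not tested.

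**Figure D4:**
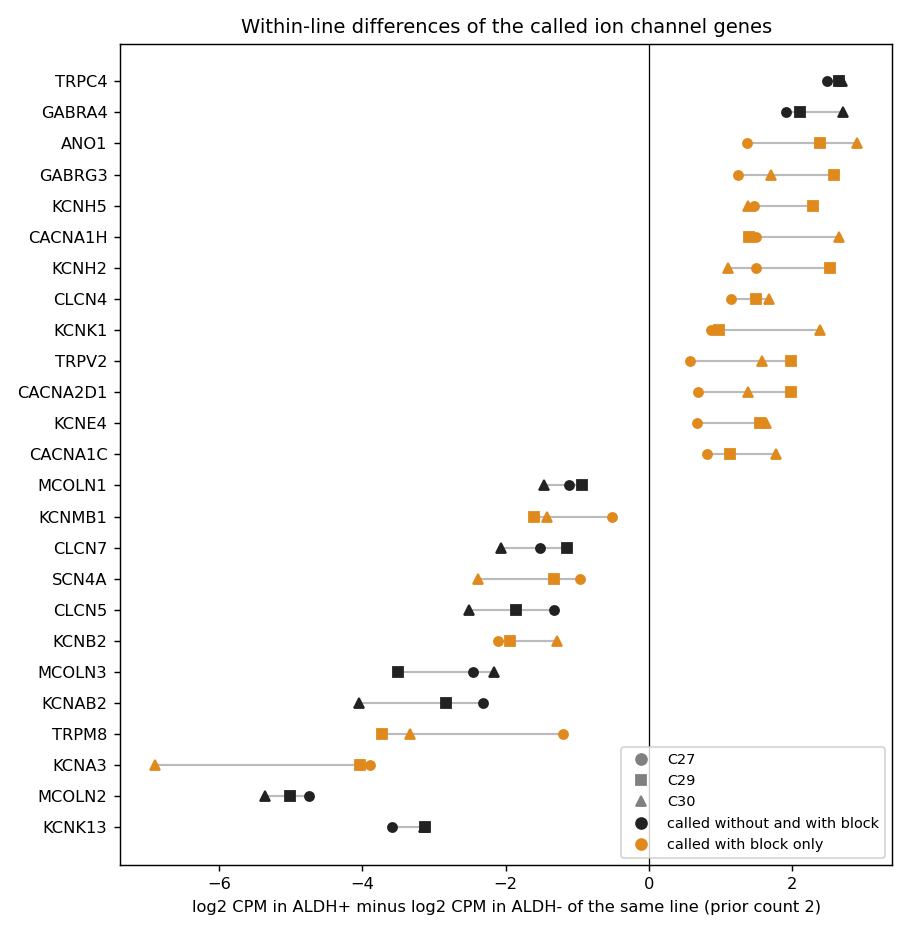
Difference in log2 CPM (prior count 2) between the ALDH+ and the ALDH- library of the same line. Shown are 25 of the 28 ion channel genes called in either edgeR fit. Black marks genes called in both edgeR fits and orange marks genes called with the block only. All 3 lines lie on the same side of 0 for each gene shown, which partly follows from showing called genes only.

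Several of the most abundant channel genes did not pass either edgeR fit. CLIC4 was at 199.85, 262.52 and 192.18 CPM in ALDH- and 405.13, 288.80 and 566.95 CPM in ALDH+ libraries. Its groups did not overlap, but the log2 fold change of 0.95 ± 0.30 had an adjusted p of 0.125 without and 0.0979 with the block by edgeR; DESeq2 called it higher (0.0263). CLIC2 was at 140.67, 111.80 and 230.05 CPM against 107.89, 60.38 and 38.60 CPM (log2 fold change -1.22 ± 0.42; 0.153 and 0.0929). TRPM2, a calcium-permeable channel gated by ADP-ribose and known from phagocytes, was less abundant (mean 7.83 TPM) and did not pass either. It was at 24.42, 33.73 and 104.44 CPM against 20.31, 23.53 and 18.13 CPM. Its fractions did not overlap, and its difference was largest in C30 (0.182 and 0.158).

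Other members that led their families by TPM did not pass either. ANO5, an anoctamin of muscle whose loss causes muscular dystrophy in humans, was at 119.10 to 131.20 CPM in ALDH- and 127.89 to 179.29 CPM in ALDH+ libraries (log2 fold change 0.23 ± 0.22). TRPM7, a channel fused to a kinase that carries magnesium, had a log2 fold change of 0.18 ± 0.23, and TRPC4AP, a TRPC4-associated protein that the symbol rule picks although it is no channel, 0.13 ± 0.20. CACNB1, a beta subunit of calcium channels, was at 20.03 to 20.47 CPM and 17.24 to 19.42 CPM, with a log2 fold change of -0.13 ± 0.22 that turned positive when scaled by library size (0.045) or on the TPM scale. SCNN1B, a subunit of the epithelial sodium channel, was at 1.55, 3.07 and 3.04 CPM against 5.64, 8.49 and 4.72 CPM, without overlap, but it was not called in either edgeR fit (log2 fold change 1.3 ± 0.43; adjusted p = 0.137 without the block and 0.05 rounded with it), while DESeq2 called it (0.026). Its neighbour SCNN1G, with 1 gene between them, had a log2 fold change of -0.03.

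The leading genes of 5 further families also did not pass. KCNMA1, the pore of the BK channel, was at 5.94, 3.95 and 3.09 CPM in ALDH- and 4.43, 7.36 and 6.78 CPM in ALDH+ libraries. Its log2 fold change was 0.51 ± 0.39 (adjusted p = 0.499 without the block). In C29 and C30 it ran opposite to its subunit KCNMB1, while in C27 both genes fell (log2 differences -0.42 and -0.52). SCN8A, a sodium channel of neurons, had 0.33 ± 0.32, the sodium channel beta subunit SCN4B 0.86 ± 0.70 and the mechanically gated PIEZO2 0.71 ± 0.90. The acid-sensing channel ASIC1 had 34 counts in all and was not tested.

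The lines differed from each other in a few channel genes. An edgeR F test between the lines, adjusted for fraction, passed for 2 of the 83 genes (2.41%), against 0.367% of all genes. KCNE4 was at 0.60 and 2.02 CPM in the ALDH- and ALDH+ libraries of C30 and at 8.77 to 25.74 CPM in the other 4 libraries (adjusted p = 0.0437). KCNK17, a tandem-pore-domain potassium channel, was at 58.08 and 48.27 CPM in C27, 45.39 and 48.55 CPM in C29, and 6.88 and 2.70 CPM in C30 (adjusted p = 0.0451). Both were thus low in C30 in both fractions. KCNK5, which has 1 gene between it and KCNK17 in the GRCg7b order, was also lowest there, at 0.35 and 0.48 CPM against 1.56 to 3.16 CPM, but its line test had an adjusted p of 0.101.

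The next 3 genes by p did not pass the line test. CACNG3, an auxiliary subunit of calcium channels and of glutamate receptors, was at 0.38 and 0.47 CPM in C27 and 2.29 to 4.54 CPM in C29 and C30 (adjusted p = 0.0663). ANO6, a calcium-activated lipid scramblase and channel, was at 47.44 and 48.40 CPM in C27, 3.44 and 14.72 CPM in C29, and 1.2 and 0.28 CPM in C30 (0.0695). TRPM8 had an adjusted p of 0.088.

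**Figure D5:**
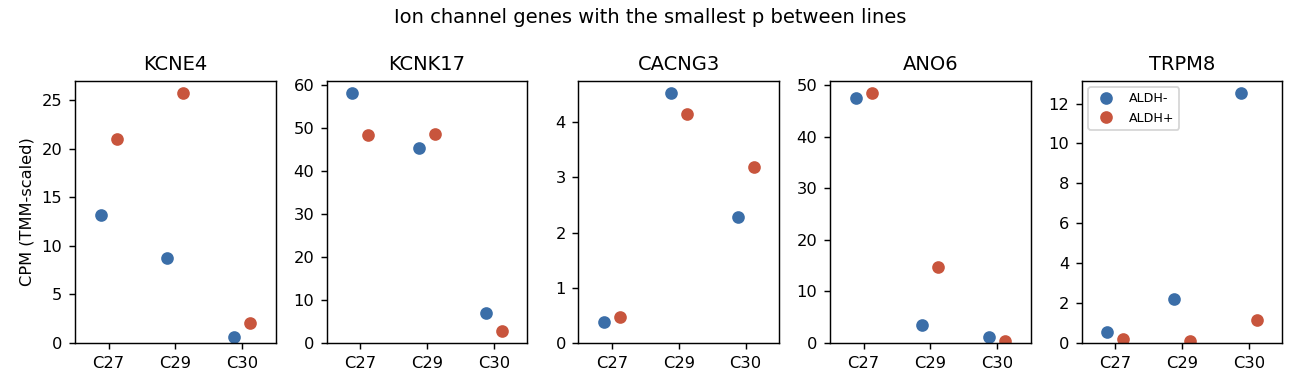
CPM by line of the 5 ion channel genes with the smallest p in the test between lines, blue for ALDH- and red for ALDH+. KCNE4 and KCNK17 are low in both libraries of C30, and ANO6 is highest in both libraries of C27.

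Channel genes with several transcripts can hide shifts between them: 63 of the 128 genes had more than 1 transcript. All 128 genes together had 290 transcripts. In the authors' deposited table, 241 of these 290 had an adjusted p-value. At an adjusted p under 0.05, 0 of them were higher in ALDH+ cells and 7 were lower. Over all 25357 transcripts with an adjusted p-value, 54 were higher and 554 lower at that threshold. These 7 in the authors' deposited table belong to CLCN5, CLCN7, KCNAB2, KCNJ5, MCOLN1 and MCOLN2, the last with 2 transcripts. KCNJ5, an inward rectifier gated by G proteins, was the only one of these 6 genes not called at gene level. Its levels were 8.14, 36.21 and 23.92 CPM in ALDH- and 18.97, 20.68 and 101.82 CPM in ALDH+ libraries, with a log2 fold change of 1.05 ± 0.75 (adjusted p = 0.468). One KCNJ5 transcript (ENSGALT00000001790) was at 0.883, 2.47 and 2.56 TPM in ALDH- and at 0, 0 and 0.0005 TPM in ALDH+ libraries. For it the authors' deposited table gives a log2 fold change of -8.9 (SE 1.53) and an adjusted p of 0.000172. The other transcript (ENSGALT00000082490) was at 4.66, 17.7 and 8.19 TPM against 15.5, 13.4 and 77.2 TPM, so the gene's ALDH+ level in C30 came from it.

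Of the 46 named channel genes under 10 counts, 11 had 0 counts. They include 7 each of the GABA-A receptor and inward rectifier genes and 12 voltage-gated potassium alpha subunits. The GABA-A subunit GABRA6 had 0 counts, the ATP-sensitive rectifier KCNJ11 8, the irritant receptor TRPA1 9 and the sodium channel SCN2A 9.

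Genes that work beside these channels were taken from 4 lists. For comparison, edgeR called 0.835% of all tested genes higher and 5.3% lower without the block, and 5.92 and 7.6% with it. Among the pore-forming and junction genes outside the symbol rule, 53 of 97 measured could be tested and 7 had 0 counts. Of the 53, 0 were higher and 6 were lower without the block (adjusted p under 0.05 by edgeR; 3 higher and 11 lower at an unadjusted p under 0.05; 1 and 9 by DESeq2). LRRC8D, a subunit of the volume-regulated anion channel, was at 46.04, 46.81 and 73.74 CPM in ALDH- and 9.77, 6.50 and 12.80 CPM in ALDH+ libraries (log2 fold change -2.52 ± 0.34; adjusted p = 0.00429). VDAC1, the main pore of the outer mitochondrial membrane, fell from 117.5 ± 14.8 to 47.6 ± 2.49 CPM (SD; 0.00776). The tweety homolog TTYH2 (-1.60), the stretch-gated TMEM63A (-1.61) and the TMC family genes TMC5 (-3.10) and TMC7 (-3.19) fell as well, given as log2 fold changes. With the block, 2 were higher and 9 lower. The water channel AQP1 was among the higher, at 6.21, 2.48 and 1.99 CPM against 44.88, 78.85 and 6.10 CPM (0.0548 without and 0.0192 with the block).

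Among partners and regulators, 1 of 30 tested genes was higher without the block and 4 with it, and 0 were lower in either edgeR fit (3 lower at an unadjusted p under 0.05, 1 by DESeq2). RRAD, a small GTPase that inhibits L-type calcium channels, was at 107.95, 92.20 and 48.58 CPM in ALDH- and 196.47, 280.94 and 266.22 CPM in ALDH+ libraries (log2 fold change 1.58 ± 0.33; adjusted p = 0.0293). With the block its relative GEM and the ankyrins ANK2 and ANK3, which anchor channels to the membrane skeleton, were higher too (0.0222, 0.00733 and 0.0219). Among 18 tested genes of calcium release and store-operated entry, 0 were higher in either edgeR fit. MCUB, an inhibitory subunit of the mitochondrial calcium uniporter, was lower in both. It fell from 45.2 ± 7.04 to 16.7 ± 0.953 CPM (SD, adjusted p = 0.00959 without the block). Without the block, 0 were higher by DESeq2, limma-voom or at an unadjusted p under 0.05. With the block, edgeR gave unadjusted p under 0.05 for ITPR1 (0.0197), MICU2 (0.0234), MICU3 (0.0439), JPH1 (0.01) and JPH3 (0.0198), all higher. ORAI1 (0.00723) and MCUB were lower at that threshold. Among 10 tested ion pumps, the sodium pump subunit ATP1B1 was lower in both edgeR fits (log2 fold change -1.60 ± 0.38, adjusted p = 0.0498). The calcium pump ATP2A3 was lower by edgeR with the block only (0.0247), and DESeq2 without the block also called it lower (0.0104). The median log2 fold changes of the 4 lists lay between 0.14 and 0.34.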

How the data were processed

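Total RNA of 6 libraries was sequenced with paired reads of 125 bp, per the labels. The submitters' processing notes name FastQC, Trimmomatic, HISAT2, kallisto, DESeq2 and the GRCg6a build, but no versions. Per transcript, the authors deposited TPM and expected counts, estimates that are whole for 42.17% of positive values within 0.001, and transcript lengths as another kind of value. The authors' deposited comparison table holds log2 fold changes with SE and p-values per transcript.

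Counts of 28756 transcripts were summed to 16963 gene IDs and rounded; 319 transcripts without a gene ID (0.285 to 0.328% of counts) were left out. Of the 128 member symbols, 124 were found in the GRCg7b RefSeq table, used only for gene order; 0 IDs matched, and no sequence or position was used here. Reads shared between paralogs cannot be traced.

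Fractions were compared with edgeR (version 4.0.16, R 4.3.3; TMM factors, quasi-likelihood test, filterByExpr by group with minimum count 10 and minimum total 15), two-sided, adjusted by Benjamini-Hochberg over 12811 genes; adjusted p in the text are from these fits. Values are TMM-scaled CPM, and ± gives the SE of a log2 change unless SD is named. An exact permutation test of 3 against 3 libraries cannot go below p = 0.1. The lines pair the libraries, since both fractions come from 1 culture; deviations from the group means correlated between fractions at r = 0.661 (C27), 0.165 (C29) and 0.487 (C30). The blocked fit is printed wherever it changes a call. Alternatives were DESeq2 1.42.0, limma 3.58.1 (voom, and log2 TPM), other scalings and filters, and leaving out libraries. The floor of 3 counts covers counting error only; SEs include the spread between libraries.

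Members, lists and tests were chosen with earlier results of these data known. Genes named by rule are those called in either fit (up to 40) and the 10 with the highest mean TPM. The rule also named the top TPM gene of each family and the 5 smallest p between lines. KCNK5, SCNN1G, TRPM2, TRPM6, CLCN3, GABRA2, the genes under 10 counts and genes of the other lists were added after their values were seen. The values of a few members are not reported here, in the text or figures, though counts of genes include them.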

Additional observations from a re-analysis of the deposited data

Results flagged for a closer look

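In 2 channel genes with a mean of at least 1 CPM the lines moved in opposite directions, by at least 1 on the log2 scale each way. This difference was not tested, since each line has 1 pair of libraries. TRPM6, a magnesium-permeable channel fused to a kinase, had a log2 CPM difference of ALDH+ minus ALDH- of 1.4 in C27, -1.21 in C29 and 0.83 in C30, at levels of 1.25, 0.73 and 1.35 CPM in ALDH- and 3.42, 0.27 and 2.46 CPM in ALDH+ libraries. ANO6 had differences of 0.03 in C27, 2.07 in C29 and -1.81 in C30.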

How the results depend on the processing

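Counts of channel genes past the threshold (adjusted p under 0.05) moved most with the block and with DESeq2. Against 2 higher and 8 lower genes, DESeq2 gave 14 and 11, and the replicate block gave 14 and 14. Calls over all tested genes moved as well. They were 107 higher and 679 lower without the block, 654 and 985 by DESeq2, and 758 and 974 with the block. For the channel genes, scaling by relative log expression or upper quartiles gave 3 and 8, and library size alone 2 and 8. The all-gene counts for these were 138 and 658, 149 and 641, and 136 and 625. A total of 10 counts gave 3 and 8 and no filter 3 and 9, each of 128 channel genes tested. By limma-voom it was 2 and 9 of 83. The all-gene counts were 124 and 665, 134 and 681, and 115 and 654. On log2 TPM, pseudocounts of 1 and 0.1 gave 2 and 6 each of 57 channel genes tested, and no filter 3 and 5 of 128. The all-gene counts were 268 and 505, 238 and 505, and 106 and 432. Leaving out 1 library gave 0 to 7 higher and 5 to 10 lower genes; higher genes numbered 0 without C29 ALDH-, C29 ALDH+ or C30 ALDH+ (by edgeR; 16, 21 and 18 at an unadjusted p under 0.05). Over all genes, leaving out 1 library gave 13 to 370 higher and 425 to 753 lower. Without C29 ALDH-, C29 ALDH+ or C30 ALDH+, 13, 50 and 44 of all genes were higher. Of the 10 called channel genes, 5 passed whichever library was left out. With the block, DESeq2 gave 19 and 15 channel genes, and leaving out 1 line gave 7 to 18 higher and 8 to 16 lower; 13 of the 28 calls passed without each line. Over all genes, the blocked DESeq2 fit gave 1435 and 1212, and leaving out 1 line gave 311 to 1047 higher and 699 to 1307 lower. Other scalings of the blocked fit, chosen after seeing the data, gave 16 and 13 channel genes (relative log expression), 17 and 13 (upper quartiles) and 19 and 14 (library size). Calls over all genes moved with them, to 863 and 909, 1066 and 901, and 1269 and 928. The median log2 change of all genes was 0.00 with TMM, 0.12 with upper quartiles, 0.18 with library size and 0.23 to 0.41 on TPM.

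Directions turned in 19 of the values for single genes, none of them a called gene. Leaving out 1 library moved ANO6 between -1.213 (without C27 ALDH+) and 3.25 (without C27 ALDH-), and it was -0.205 without C29 ALDH- and -0.19 without C30 ALDH-. ANO6 was also -0.007 by limma-voom and -0.575 with the block without C29. CACNB1 went to 0.045 with library size (0.05 with the block) and 0.398, 0.428 and 0.398 on TPM with a pseudocount of 1, of 0.1 and unfiltered. CACNG3 ranged from -0.398 to 0.968 with 1 library out, negative without C27 ALDH- (-0.369), C29 ALDH+ (-0.398) or C30 ALDH+ (-0.039). KCNK17 ranged from -0.581 to 0.411, positive without C27 ALDH- (0.4), C29 ALDH- (0.028) or C30 ALDH+ (0.411). KCNJ5 ranged from -0.176 (without C30 ALDH+) to 1.555, and PIEZO2 from -0.003 (without C27 ALDH+) to 2.187. SCN8A was -0.036 with the block without C29. The cause was not tested. Of the 83 tested channel genes, those under 1 CPM rest on few counts, which limits what these libraries can show.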
